A study of Homo sapiens with 2 samples.

Results

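The fibroblast growth factor (FGF) genes described here are 5 ligands (FGF1, FGF2, FGF5, FGF7 and FGF18), 4 receptors (FGFR1, FGFR2, FGFR3 and FGFR4) and 1 binding protein (FGFBP3). They were taken by gene symbol, current or older, from the 12445 genes named on the array, and they hold 12 probes. FGFBP3 was found under its older symbol C10orf13. The list of genes was chosen by family membership with their log2 ratios on both arrays already known, so each value below describes the set and tests nothing. Of the 10 genes, 8 were measured in the depletion experiment, 9 in the transfection experiment and 7 in both.

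The study compared total RNA on 2 arrays of 2 colours, with 1 array per comparison. The depletion array held CD26-depleted ACC-MESO1 cells and their control. The transfection array held MSTO-211H cells given CD26 in the vector pLNCX2 and their control. Both are established mesothelioma cell lines, and both were grown in the same medium with fetal calf serum. CD26 is a cell surface peptidase encoded by DPP4. The labels name the depleting agent as an siRNA in one field and an shRNA in another, and they give neither the treatment of the control cells nor whether the transfected cells were a clone. The control RNA carried Cy5 and the manipulated RNA Cy3 on both arrays, without a dye swap or a replicate array. Every value is a log2 ratio of manipulated over control cells, so a level of expression, and hence an order of levels among the genes, cannot be given. DPP4 itself had log2 ratios of -3.92 after depletion and 5.51 after transfection, which follows the labels.

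FGF ligands are secreted proteins that bind receptor tyrosine kinases of the FGFR family together with heparan sulfate, and the activated receptor signals through the adaptor FRS2 to the MAP kinase cascade. FGF1 and FGF2 lack a classical signal peptide, and heparan sulfate holds many ligands near the cell that made them. FGF-binding proteins such as FGFBP3 carry ligands away from that store. FGF2 and its receptors are known as growth signals for mesothelioma cells in culture.

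FGF1 and FGFBP3 were the FGF genes past 2-fold, and their RefSeq promoter sequences (GRCh38.p14) are shown because the results turn on these genes. Each sequence gives the 250 bases before a transcription start, 5′ to 3′. RefSeq lists 4 starts for FGF1, and the most upstream and the most downstream of these are printed. Capitals mark matches, on either strand, to 6 motifs that were searched by their letters alone. The AP-1 motif was searched as TGANTCA and the TEAD motif as GGAATG. The GC box was searched as GGGCGG and the cyclic AMP response element, CRE, as TGACGTCA. The TATA box was searched as TATAAA, and the CCAAT box by the letters of its name.
FGF1, most upstream start, chr5:142698071-142698320, minus strand: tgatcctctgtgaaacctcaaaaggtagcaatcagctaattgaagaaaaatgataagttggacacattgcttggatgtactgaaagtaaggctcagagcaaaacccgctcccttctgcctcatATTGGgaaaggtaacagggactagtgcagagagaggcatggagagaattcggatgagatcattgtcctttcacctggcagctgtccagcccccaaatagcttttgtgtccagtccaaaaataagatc
FGF1, most downstream start, chr5:142644240-142644489, minus strand: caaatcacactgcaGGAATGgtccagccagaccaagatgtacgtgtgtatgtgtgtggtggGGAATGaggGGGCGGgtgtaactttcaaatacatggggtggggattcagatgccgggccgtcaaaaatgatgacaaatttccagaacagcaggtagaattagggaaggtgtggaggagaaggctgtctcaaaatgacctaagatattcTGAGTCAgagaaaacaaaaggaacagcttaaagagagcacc
FGFBP3, chr10:91909487-91909736, minus strand: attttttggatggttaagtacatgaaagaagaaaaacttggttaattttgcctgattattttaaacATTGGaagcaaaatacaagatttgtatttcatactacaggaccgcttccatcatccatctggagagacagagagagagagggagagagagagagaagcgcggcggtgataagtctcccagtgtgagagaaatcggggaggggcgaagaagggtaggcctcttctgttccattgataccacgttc

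The most upstream FGF1 window held 1 match, to CCAAT on the reverse strand, a motif found in 32% of all 35116 windows of that length. The most downstream FGF1 window held 1 AP-1 match, 2 TEAD matches and 1 GC box. A match to these was present in 6.57%, 11.9% and 42.6% of all windows, respectively. The FGFBP3 window held 1 CCAAT match on the reverse strand. None of the printed windows matched TATA or CRE, which were found in 10.7% and 1.65% of all windows, and no matches in them overlapped. These matches describe letters in a window and do not show a binding site.

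The printed FGF1 and FGFBP3 windows were poor in G and C. The share of G and C was 44.8% and 47.2% in the printed FGF1 windows and 43.2% in the FGFBP3 window, against a median of 58% over all windows. The 2 other FGF1 windows had 45.6%, in an overlap with the most upstream one, and 60.8%. The printed windows held 2, 4 and 7 CpG dinucleotides, against a median of 11. Relative to the number expected from their C and G, the CpG numbers were 0.16, 0.32 and 0.65, against a median of 0.56. By that measure the FGFBP3 window lay above the median. The FGF2 window, unlike the printed ones, had 75.2% G and C and 33 CpG dinucleotides, and that of FGF18 had 78.8% and 31. A low share was not limited to the genes past 2-fold, since the window of FGF7 had 38.4% G and C and 2 CpG dinucleotides.

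FGF1, a ligand that can activate every FGF receptor, was 7.03-fold higher in CD26-depleted ACC-MESO1 cells than in their control. Its log2 ratio was 2.81 there, and in CD26-transfected MSTO-211H cells it was -0.55, or 1.47-fold lower than control. The array held 1 probe for FGF1. The gene ranked as number 7 from the top of 10347 genes after depletion, and after transfection 7.58% of 9359 genes lay below it.

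FGF2, the closest relative of FGF1 among the ligands, had log2 ratios of 0.67 after depletion and 0.30 after transfection. It was thus 1.6-fold and 1.23-fold higher, with the same sign on both arrays. FGF7, a ligand that acts mainly on an epithelial splice form of FGFR2, had 0.13 and 0.07. FGF5, a ligand known as a brake on hair growth, was not measured after depletion and had 0.06 after transfection. FGF2 after depletion was the ligand value closest to 2-fold without reaching it on that array.

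FGF18, a ligand with roles in bone and lung development, was 1.79-fold lower in CD26-transfected MSTO-211H cells, with a log2 ratio of -0.84. It had no value on the depletion array. It was the lowest of the 9 FGF genes measured on the transfection array, and 2.48% of all genes measured there lay below it. Its close relative FGF17, which is outside the set of 10, had -0.85 on the same array and -0.24 after depletion.

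FGFBP3 was 2.06-fold lower in the CD26-depleted cells and 2.48-fold higher in the CD26-transfected cells. Its log2 ratios were -1.05 and 1.31, both from 1 probe. The sign of FGFBP3 matched that of DPP4 on both arrays, with a smaller size. On the depletion array 1.34% of genes lay below it, and on the transfection array 2.05% lay above it. Its depletion value was just past the threshold, and with the array centred on ribosomal protein genes it was -0.71.

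The 4 receptors, averaged over probes, lay within 1.32-fold of their control wherever they were measured. FGFR1, a receptor with broad expression in mesenchymal cells, had probes at -0.29 and 0.33 on the depletion array, on opposite sides of 0, and their mean was 0.018. The second of these probes gave -0.08 on the transfection array, and the first had no value there. The mean of FGFR1 after depletion turned below 0 with the array centred on its mean or each chromosome on its median, and with the probe of smallest size. FGFR2, whose splice forms bind different ligands, had probes at 0.33 and 0.47 after depletion, with a mean of 0.40, and no value after transfection.

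FGFR3, a receptor known for limiting bone growth, had log2 ratios of -0.37 and -0.19, the latter being 0.082 with ribosomal protein genes at 0. FGFR4, the receptor for the bile acid hormone FGF19 in liver, had -0.05 and -0.28, and the former was 0.29 with that centring. The transfection value of FGFR1 was 0.19 with that centring. FGFR1, FGFR3 and FGFR4 thus each changed sign with the centring on at least 1 array, and FGFR2 after depletion kept its sign under the centrings tried.

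**Figure D1:**
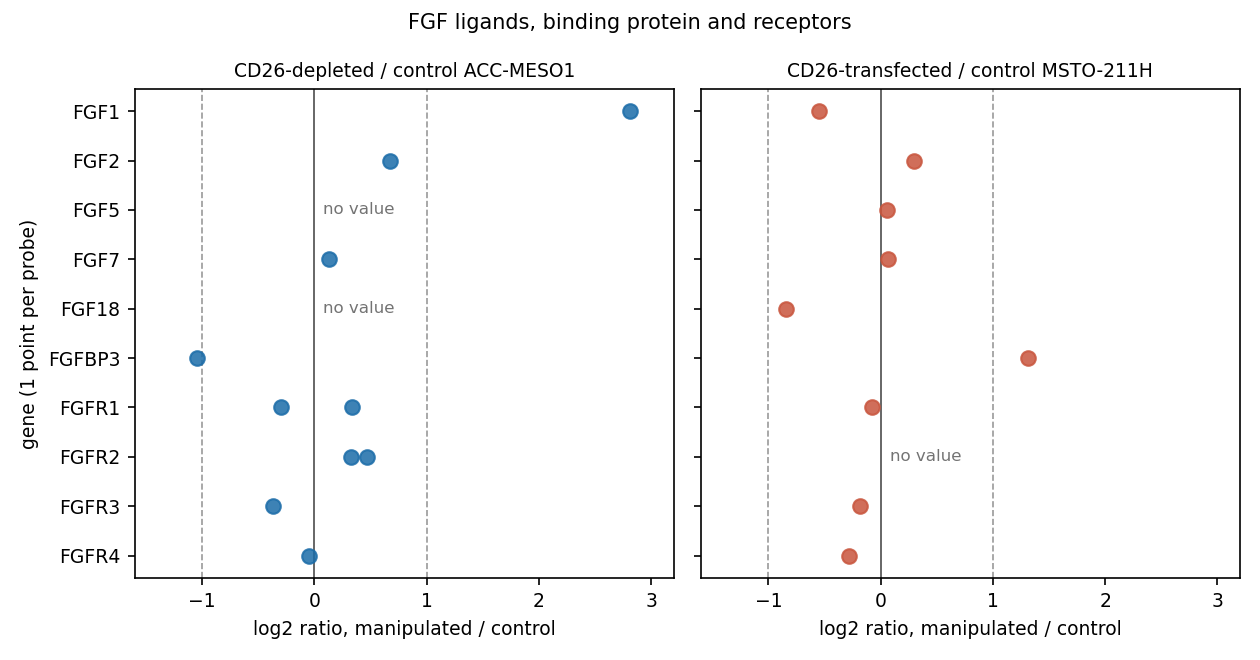
Log2 ratios (manipulated over control, horizontal axis) of the 10 FGF genes, 1 point per probe, on the depletion array (left) and the transfection array (right); dashed lines mark 2-fold and "no value" marks a gene without one. FGF1 at 2.81 and FGFBP3 at -1.05 and 1.31 are the points beyond the dashed lines.

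The only repeat measure was the agreement between different probes of a gene. Genes with several probes numbered 566 after depletion and 471 after transfection, and their pooled SD between probes was 0.42 and 0.45. FGF1 and FGFBP3 after depletion and FGFBP3 after transfection differed from 0 by more than this SD, as did FGF2 after depletion and FGF1 and FGF18 after transfection. The remaining FGF values lay within it. This split depended on the centring. With ribosomal protein genes at 0, FGF1 after transfection was -0.28, within the SD. FGF2 after transfection (0.57) and FGF7 and FGFR2 after depletion (0.46 and 0.73) were then beyond it. This SD describes probes of 1 RNA pair and not the spread between cultures, which was not measured. The SD over all measured probes was 0.48 and 0.50, not far above that between probes of a gene. Of all genes, 12.9% lay at least as far from 0 as FGF2 after depletion. For FGF1 and FGF18 after transfection these shares were 19.2% and 8.39%. In the order of the depletion values, FGF1 was followed by FGF2, FGFR2, FGF7, FGFR1, FGFR4, FGFR3 and FGFBP3. The steps from FGF1 to FGF2 and from FGFR3 to FGFBP3 exceeded the SD between probes, and the steps between other neighbours in that order did not. On the transfection array the order was FGFBP3, FGF2, FGF7, FGF5, FGFR1, FGFR3, FGFR4, FGF1 and FGF18, where the step from FGFBP3 to FGF2 exceeded the SD.

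At 2-fold, 1 of the 8 measured FGF genes was higher after depletion, where 3.31% of all genes were, and 1 was lower, where 1.56% were. After transfection 1 of 9 was higher and 0 of 9 were lower, against 4.09% and 1.37% of all genes. The median of the FGF genes was 0.08 after depletion and -0.08 after transfection, beside medians of 0.012 and 0.0072 over all genes. Among the FGF genes measured on both arrays, 3 of 7 had opposite signs, namely FGF1, FGFBP3 and FGFR1, where 46.9% of all genes did, and FGFR1 changed its sign with the centring. On both arrays FGFBP3 exceeded 2-fold with the sign of DPP4, a pattern found in 12 of 8956 genes, or 0.134%, with FGFBP3 and DPP4 among them. The reverse pattern was found in 0 of 7 FGF genes and in 0.0558% of all genes. At a log2 ratio of 0.5, 2 FGF genes were higher and 1 lower after depletion, against 12.8% and 9.8% of all genes, and 1 was higher and 2 lower after transfection, against 13.1% and 9.4%. At 1.5, FGF1 after depletion was the FGF value left. At that size 1.21% of all genes were higher and 0.213% lower after depletion, and 1.51% and 0.235% after transfection. Since the FGF genes were chosen with such values known, nothing is read from these counts. With ribosomal protein genes at 0, which moved the median of all genes to 0.34 and 0.28, the all-gene counts of higher and lower genes went from 342 and 161 to 800 and 43 after depletion, and from 383 and 128 to 711 and 47 after transfection.

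**Figure D2:**
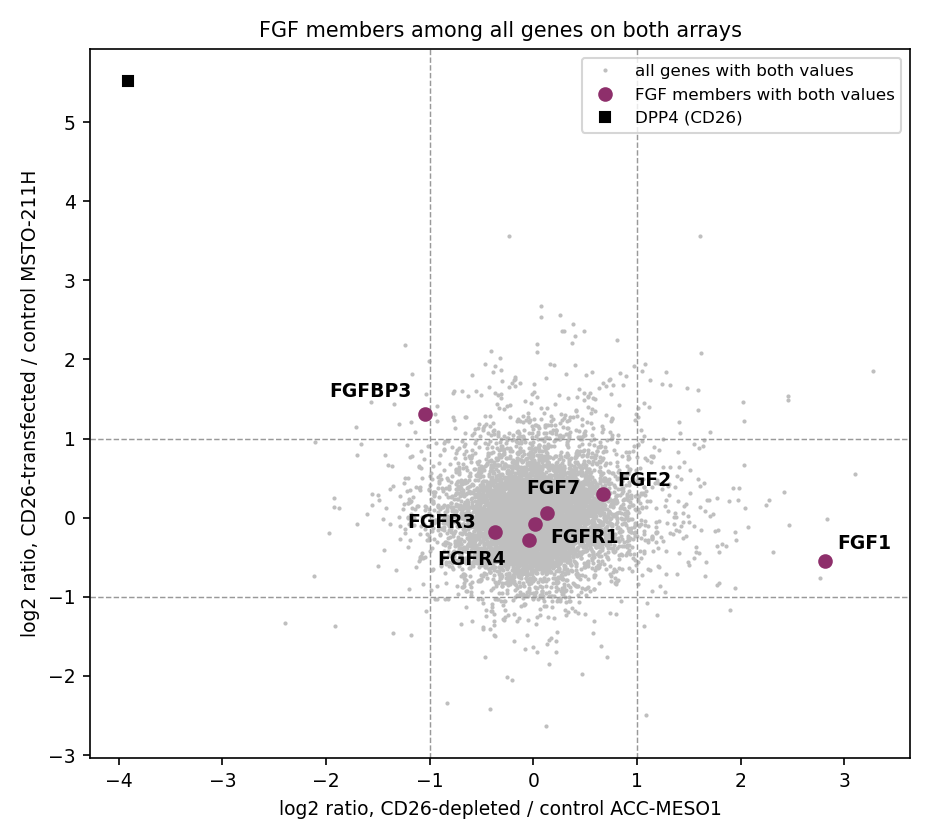
Log2 ratios on the depletion array (horizontal axis) and the transfection array (vertical axis) for the 8956 genes with both values (grey), the 7 FGF genes with both values (purple) and DPP4 (black square); dashed lines mark 2-fold. FGF1 lies to the right at 2.81 and -0.55, FGFBP3 to the upper left at -1.05 and 1.31, and the other FGF genes lie within 2-fold on both arrays.

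The genes whose pair of log2 ratios lay closest to FGF1 were found by the straight-line distance over the 2 arrays. They were BIRC3 (2.77 and -0.77, at a distance of 0.22), CLDN1 (2.32 and -0.43, at 0.51) and CCN2 (2.83 and -0.01, at 0.54). Closest to FGFBP3 were EVI5 (-0.94 and 1.31, at 0.10), TRIM7 (-0.93 and 1.22, at 0.14) and KDM4B (-0.93 and 1.42, at 0.16). These distances run between 2 genes over 2 arrays, so the SD between probes of a gene on 1 array is not a scale for them. A likeness over 2 arrays is a weak description.

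The measured genes next to FGF1 on its chromosome did not share its ratio. In chromosome order, the 3 before it were GNPDA1 (-0.37 after depletion), NDFIP1 (-0.14) and SPRY4 (-0.14), and the 3 after it were ARHGAP26 (0.06), NR3C1 (0.02) and SH3RF2 (0.56). On the transfection array these 6 genes lay between -0.28 and 0.47. Next to FGFBP3, TNKS2 had -0.11 and 0.20, and BTAF1 on the other side had 0.52 and 0.29. Further out, PPP1R3C had -0.93 after depletion and no value after transfection, HECTD2 had no value after depletion and 2.11 after transfection, CPEB3 had 0.11 and 0.47, and IDE had -0.78 and 0.13. Low depletion values were therefore present in PPP1R3C and IDE near FGFBP3, and a high transfection value in HECTD2, with TNKS2, BTAF1 and CPEB3 between them.

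**Figure D3:**
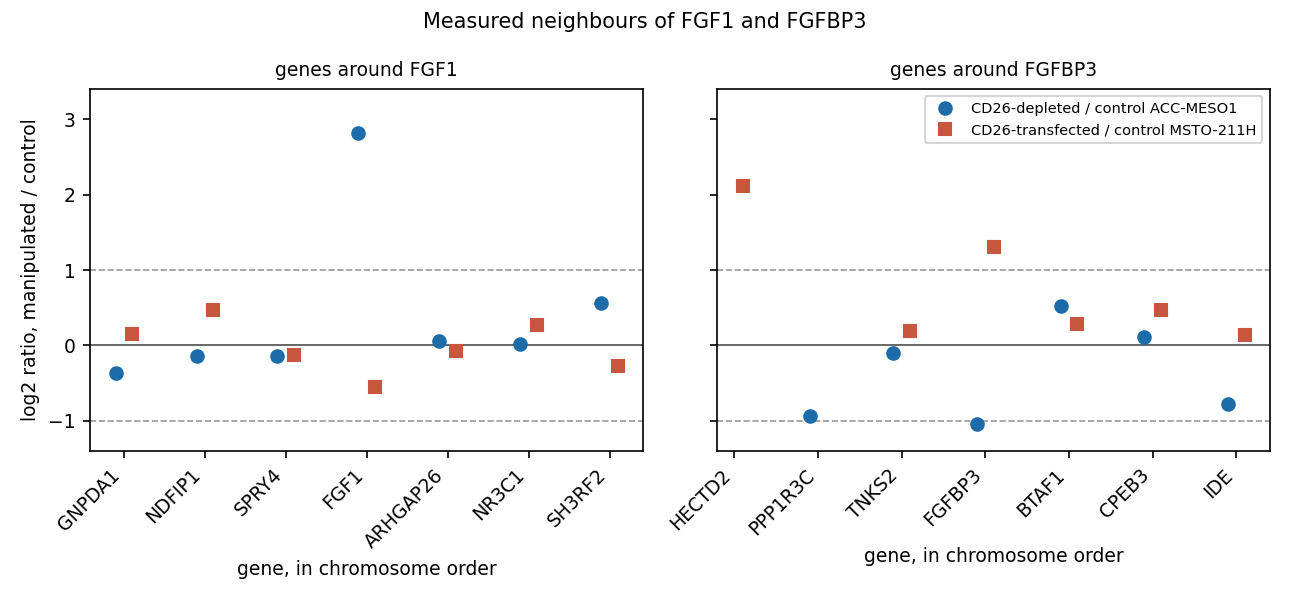
Log2 ratios (vertical axis) of FGF1 (left) and FGFBP3 (right) and the 3 measured genes on either side in chromosome order (horizontal axis), on the depletion array (circles) and the transfection array (squares); dashed lines mark 2-fold. FGF1 stands at 2.81 among neighbours from -0.37 to 0.56, and HECTD2 at 2.11 is the neighbour of FGFBP3 past 2-fold.

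The remaining FGF genes were thinly measured and none of them was past 2-fold. After depletion 3.31% of all genes were higher and 1.56% lower at that size, and after transfection 4.09% and 1.37%. Over all 22 FGF genes of the human family, 18 were named on the array, 12 had a value after depletion and 11 after transfection, and 4 that were named had no value on either. Of the 13 ligands outside the set, 7 were measured after depletion, from FGF22 (-0.76), a ligand of the FGF7 group, to FGF8 (0.67), a ligand of embryonic patterning. After transfection 5 were measured, from FGF17 (-0.85) to FGF3 (0.76), a ligand of inner ear development. The medians were 0.0027 and 0.21. Of the intracellular FGF homologous factors, which bind sodium channels and are not secreted, FGF14 had -0.92 and 0.07 and FGF11 had -0.07 after depletion.

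Of the partners of ligands and receptors, none of the 5 measured on either array was past 2-fold. The shares of all genes higher and lower were 3.31% and 1.56% after depletion, and 4.09% and 1.37% after transfection. FGFBP1, the best known FGF carrier, had -0.69 after depletion and no value after transfection, so the comparison with FGFBP3 could be made on the depletion array alone, where both were below 0. FGFRL1, a receptor-like protein without a kinase domain, had -0.38 and -0.22. FLRT3, a membrane partner of FGF receptors, had 0.35 and 0.46. The list medians were -0.38 and 0.26.

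In the depleted cells, 2 of 22 heparan sulfate genes were past 2-fold upward and 0 downward, where 3.31% and 1.56% of all genes were. These were SDC4 (log2 ratio 1.57, 2.96-fold), a transmembrane heparan sulfate proteoglycan, and HS3ST3A1 (1.24, 2.36-fold), a sulfotransferase that modifies the chains. They had -0.37 and 0.36 after transfection. After transfection 1 of 21 was at least 2-fold higher and 0 lower, against 4.09% and 1.37% of all genes. It was the sulfotransferase gene HS6ST2 (1.42, from 1 of 2 probes), which had no value after depletion. The lowest members were EXTL2 (-0.90) after depletion and HS6ST1 (-0.56) after transfection. The medians of 0.09 and 0.07 lay close to those of all genes.

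None of the measured signal transducers was past 2-fold, with 18 measured after depletion and 17 after transfection. Of all genes, 3.31% were at least 2-fold higher and 1.56% lower after depletion, and 4.09% and 1.37% after transfection. Among so few genes, the absence of a call is near those shares and is not a result about the transducers. FRS2, the adaptor that docks on FGF receptors, had 0.58 and 0.37. After depletion the lowest was the MAP kinase gene MAPK3 (-0.68). After transfection the values ran from HRAS (-0.52) to the docking protein gene GAB1 (0.90), which had -0.52 after depletion. The medians were -0.0041 and 0.07.

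Among feedback inhibitors and target genes of FGF signalling, 3 of 16 were past 2-fold upward in the depleted cells and 0 downward, where 3.31% and 1.56% of all genes were. They were the cyclin gene CCND1 (1.95, 3.87-fold), the phosphatase gene DUSP4 (1.39, 2.63-fold), which acts on MAP kinases, and the early response gene IER3 (1.04, 2.05-fold). These genes respond to many signals besides FGF. Other genes of the list had values under 2-fold, among them MYC at 0.90, DUSP5 at 0.61, ETV4 at 0.60, ETV5 at 0.49, SPRY2 at -0.05 and SPRY4 at -0.14. DUSP6 had no value. The lowest was SPRY3 (-0.55), a relative of SPRY2. The list median was 0.28, and 11 of 16 genes were above 0, where 51.3% of all genes were. Whether FGF signalling had a part in any of these values was not tested.

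After transfection 1 of 17 feedback and target genes was at least 2-fold higher and 0 lower, against 4.09% and 1.37% of all genes. It was IL17RD (1.62, 3.08-fold), a membrane inhibitor of FGF signalling, which had 0.44 after depletion. CCND1, DUSP4 and IER3 had -0.18, 0.21 and 0.31 there. SPRY2, an inhibitor of receptor signalling, was the lowest at -0.53, and DUSP6, the phosphatase of ERK, had -0.40. The list median was -0.09, with 6 of 17 above 0, where 50.7% of all genes were.

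**Figure D4:**
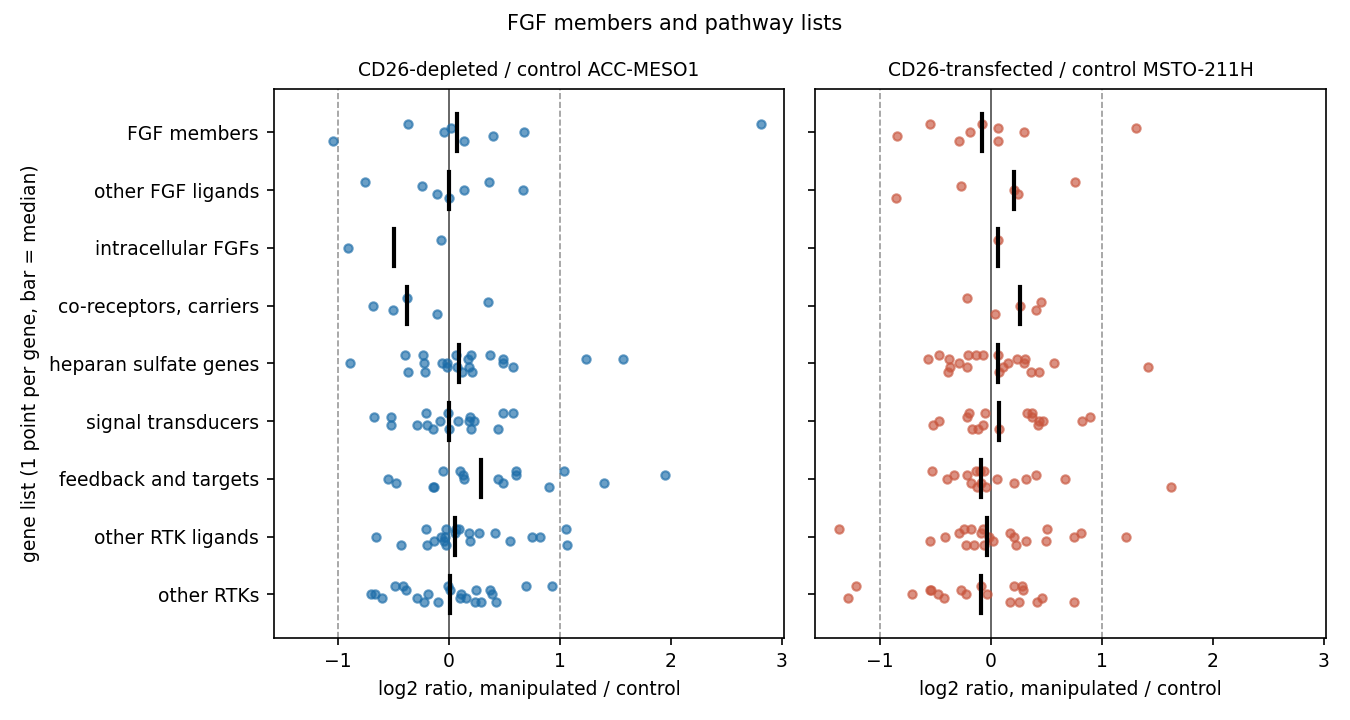
Log2 ratios (horizontal axis) of the FGF genes and of 8 lists of related genes (1 point per gene, black bar for the median; RTK, receptor tyrosine kinase) on the depletion array (left) and the transfection array (right); dashed lines mark 2-fold. The list of feedback and target genes has medians of 0.28 and -0.09, and FGF1 at 2.81 is the point farthest from 0 on the left.

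Marker genes of the cell lines could be read as ratios alone. Of 12 mesothelial markers, 10 had a value after depletion and 9 after transfection, with medians of 0.03 and -0.12. They ran from WT1 (-0.37) to ITLN1 (1.38) after depletion, with 6 of 10 above 0, where 51.3% of all genes were. After transfection they ran from mesothelin, MSLN (-1.31), and the keratin gene KRT18 (-1.16) to WT1 (0.57) and UPK3B (0.66). There 4 of 9 were above 0, where 50.7% of all genes were. Fibroblast markers, of interest because fibroblasts make several FGFs, had medians of 0.01 and -0.38, from FBLN1 (-0.14) to MFAP5 (1.96) after depletion and from COL14A1 (-0.77) to THY1 (0.75) after transfection. Endothelial markers ran from VWF (-0.22) to CLDN5 (0.29) after depletion and from ERG (-0.51) to CLDN5 (0.57) after transfection. Of 10 lymphocyte and myeloid markers 3 and 4 had a value, from CD14 (0.34) to CSF1R (0.93) after depletion and from CD68 (-0.89) to CD3E (1.88) after transfection. Their part in the FGF values was not tested.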

How the data were processed

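Gene expression was measured on 2 arrays of 2 colours in 2 mesothelioma cell lines. The authors deposited normalized log2 ratios of manipulated over control cells, per the labels' descriptions. The sources used here do not name the background correction, normalization method, scanner or rule for missing values. Of 24267 probes, 19622 were measured after depletion and 17737 after transfection. Probes were named by platform annotation, which gave 1 gene symbol for 13395, several for 0 and none for 10872, and symbols were updated through RefSeq (GRCh38.p14). Of the listed symbols, 10076 were current, 2285 were updated and 113 were kept. Probes of a gene were averaged with pandas 2.3.3 on Python 3.11.15. The averaging was tested on simulated data whose probes varied less than the real ones, which checks the code and not the calls.

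With 1 array per comparison, no test was possible, and precision is limited by the number of arrays. A gene was called at a log2 ratio of 1 in size. The members and lists were chosen with earlier results of these data known. The text names DPP4, all members, the genes past 2-fold or at the ends of each list other than the ribosomal protein genes, which served for centring alone, the 3 nearest genes by ratio and by chromosome order on each side of members past 2-fold, and further list genes chosen after their values were seen. Alternatives were other centrings, a common spread, other rules for probes, genes measured on both arrays, symbols as listed and thresholds of 0.5 and 1.5.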

Additional observations from a re-analysis of the deposited data

How the results depend on the processing

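No alternative moved the log2 ratio of an FGF gene by as much as the pooled SD between probes (131 comparisons), but most of these comparisons could not do so. Apart from FGFR1 and FGFR2, each FGF gene had 1 probe, so rules for probes left its value unchanged. Centring on ribosomal protein genes, with medians of -0.33 and -0.27, shifted all genes alike by less than the SDs of 0.42 and 0.45. The agreement is thus no measure of precision. Counts of genes past the threshold moved in 12 of 50 cases. With ribosomal protein genes at a median of 0, the depleted cells had 2 FGF genes past 2-fold upward, FGF1 (3.15) and FGF2 (1.00), and 0 downward, and 0 were in opposite directions. Of all 10347 genes measured after depletion, 800 were higher and 43 lower with that centring. With symbols as listed, FGFBP3 was not found under its current name, and 0 FGF genes were lower after depletion, 0 higher after transfection and 0 in opposite directions. At a threshold of 0.5, 2 were higher after depletion, 2 lower after transfection and 2 in opposite directions (FGF1 and FGFBP3). The share of all genes in opposite directions was computed at 2-fold alone, so the last count has none beside it. At 1.5, 0 were lower after depletion, 0 higher after transfection and 0 in opposite directions. FGF1 after depletion ranged from 2.79 to 3.15 over the alternatives. Of 128 list medians, 1 moved by more than the SD between probes, that of the intracellular factors after depletion, at -0.92 among genes measured on both arrays, where FGF14 was the one gene left. No paired analysis was possible because each comparison had 1 array. Signal over background was not used here, so a dim probe could not be told from a bright one.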

Other observations

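Outside the FGF system, ligands and receptors of other receptor tyrosine kinase families were read in the same way. Of 22 ligands measured after depletion, 2 were at least 2-fold higher and 0 lower, the lymphatic growth factor gene VEGFC (log2 ratio 1.05) and GAS6 (1.07), the ligand of AXL, where 3.31% and 1.56% of all genes were. Of 22 measured after transfection, ARTN, a ligand of the RET system, was higher (1.22) and GAS6 lower (-1.37), against 4.09% and 1.37% of all genes. The lowest ligand after depletion was TGFA (-0.66). The list medians were 0.05 and -0.04.

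Of 23 other receptor tyrosine kinase genes measured after depletion, 0 were past 2-fold, where 3.31% of all genes were higher and 1.56% lower. They ran from TYRO3 (-0.70) to CSF1R (0.93), with a median of 0.0076. Of 19 measured after transfection, 0 were higher and 2 lower, the insulin receptor gene INSR (-1.29) and RET (-1.21), against 4.09% and 1.37% of all genes, with ERBB3 (0.75) the highest and a median of -0.09. Each of these values is from 1 array.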
